A study of Mus musculus with 4 samples.

Results

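The 40 proteasome subunit genes described here were chosen by symbol from a table of 21090 mouse genes. They are the genes called Psma, Psmb, Psmc, Psmd or Psme followed by a number, without the 3 immunoproteasome genes Psmb8, Psmb9 and Psmb10. The symbols divide them into 16 genes of the core particle (Psma and Psmb), 20 genes of the regulatory particle (Psmc and Psmd) and 4 genes of the activators (Psme). Of the 40 genes, 38 had a mean of at least 1 RPKM (reads scaled to gene length and to the library total) over the 4 libraries and entered the test across genes. The other two belong to tissue-restricted forms of the core particle. Psma8, the alpha subunit of the testis, had 0 reads in all 4 libraries, and 3 reads would have given between 0.128 and 0.177 RPKM. Psmb11, the beta subunit of the thymus, had 2 reads in the vector control (0.0866 RPKM) and 0 in the other libraries.

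The proteasome is the protease that degrades most proteins tagged with ubiquitin. Its core particle is a barrel of stacked rings, in which alpha subunits gate the entrance and some of the beta subunits carry the proteolytic sites. The regulatory particle sits on the barrel, where a base with a ring of ATPases unfolds the substrate and a lid removes ubiquitin, while the activators are alternative caps. The particles take up their subunits in fixed and equal numbers, and the transcription factor Nfe2l1 is known to raise many subunit genes together when proteasome activity is low.

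RNA-seq was available for 4 cell lines with 1 library each. All came from a mammary tumor that had spread to the lung in a C57BL/6 mouse that carried mutant Pik3ca and mutant Trp53 alleles and Cre recombinase under the MMTV promoter, which is active in mammary epithelium and also in other cells. The controls were the parental line and a vector control line, and the knockouts were lines edited in exon 3 and in exon 2 of S100a4 by lentiviral Cas9 with a guide RNA and puromycin selection. The sources used here do not say whether a line was 1 clone, and the exon 2 knockout is titled as made from cells 308 while the other titles give 307, whereas the study describes a single starting line. Below, values in the 4 lines are marked parental, vector, exon 3 and exon 2. S100a4, on chromosome 3 (90603771 to 90606045, GRCm38), was at 3576 (parental), 4741 (vector), 1136 (exon 3) and 1105 RPKM (exon 2). Both knockouts were below both controls, with a log2 change of -1.88 (SE 0.311, n = 2 and 2, adjusted p = 0.0731 in limma). With quantile normalization limma gave S100a4 an adjusted p of 0.0357, and with a robust prior 0.00127. The other alternatives with all 4 libraries reached up to 0.164. Leaving out a control gave a log2 change of -2.08 (without the parental line) or -1.67 (without the vector control). Leaving out a knockout gave -1.90 (without exon 3) or -1.86 (without exon 2).

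Reads in genes numbered between 14619736 and 20400718 per library. Of the epithelial markers Krt8, Krt18, Krt5, Krt14, Epcam and Cdh1, 2 of 6 reached 1 RPKM in each library (Krt8 and Krt18), with a summed level of 129.8 (parental), 34.3 (vector), 107 (exon 3) and 74.8 RPKM (exon 2). Epcam and Cdh1, which define epithelium, stayed below 1 RPKM in all 4 lines labelled as mammary tumor cells. All 6 mesenchymal markers were above 1 RPKM, and their sum was 3959, 2766, 2087 and 2419 RPKM in the same order of lines. Of the leukocyte markers only Cd68 reached 1 RPKM, Cd3e and Emr1 were at 0, and 0 of 4 endothelial markers reached 1 RPKM.

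RPKM levels, which are per length, differed widely among subunits that the core particle takes up in equal numbers. Within the core particle the mean over the 4 libraries ranged 21.6-fold, from 23.4 RPKM for Psma3 to 505 RPKM for Psmb1. Within the regulatory particle it ranged 7.70-fold, from 31.0 RPKM for Psmd10, an assembly factor of the base, to 239 RPKM for Psmd4, a ubiquitin receptor of the base. The 6 ATPases Psmc1 to Psmc6, which form 1 ring, lay within 2.83-fold. Psmb1 was the highest subunit gene in the parental line and in both knockouts, and Psmb4, its neighbor in the beta ring, was the highest in the vector control. The 4 activator genes ranged 5.45-fold, and Psme1 was the highest of them. Of the summed RPKM of a library, the subunit genes together held 0.897% (parental), 1.26% (vector), 1.03% (exon 3) and 0.990% (exon 2).

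**Figure D1:**
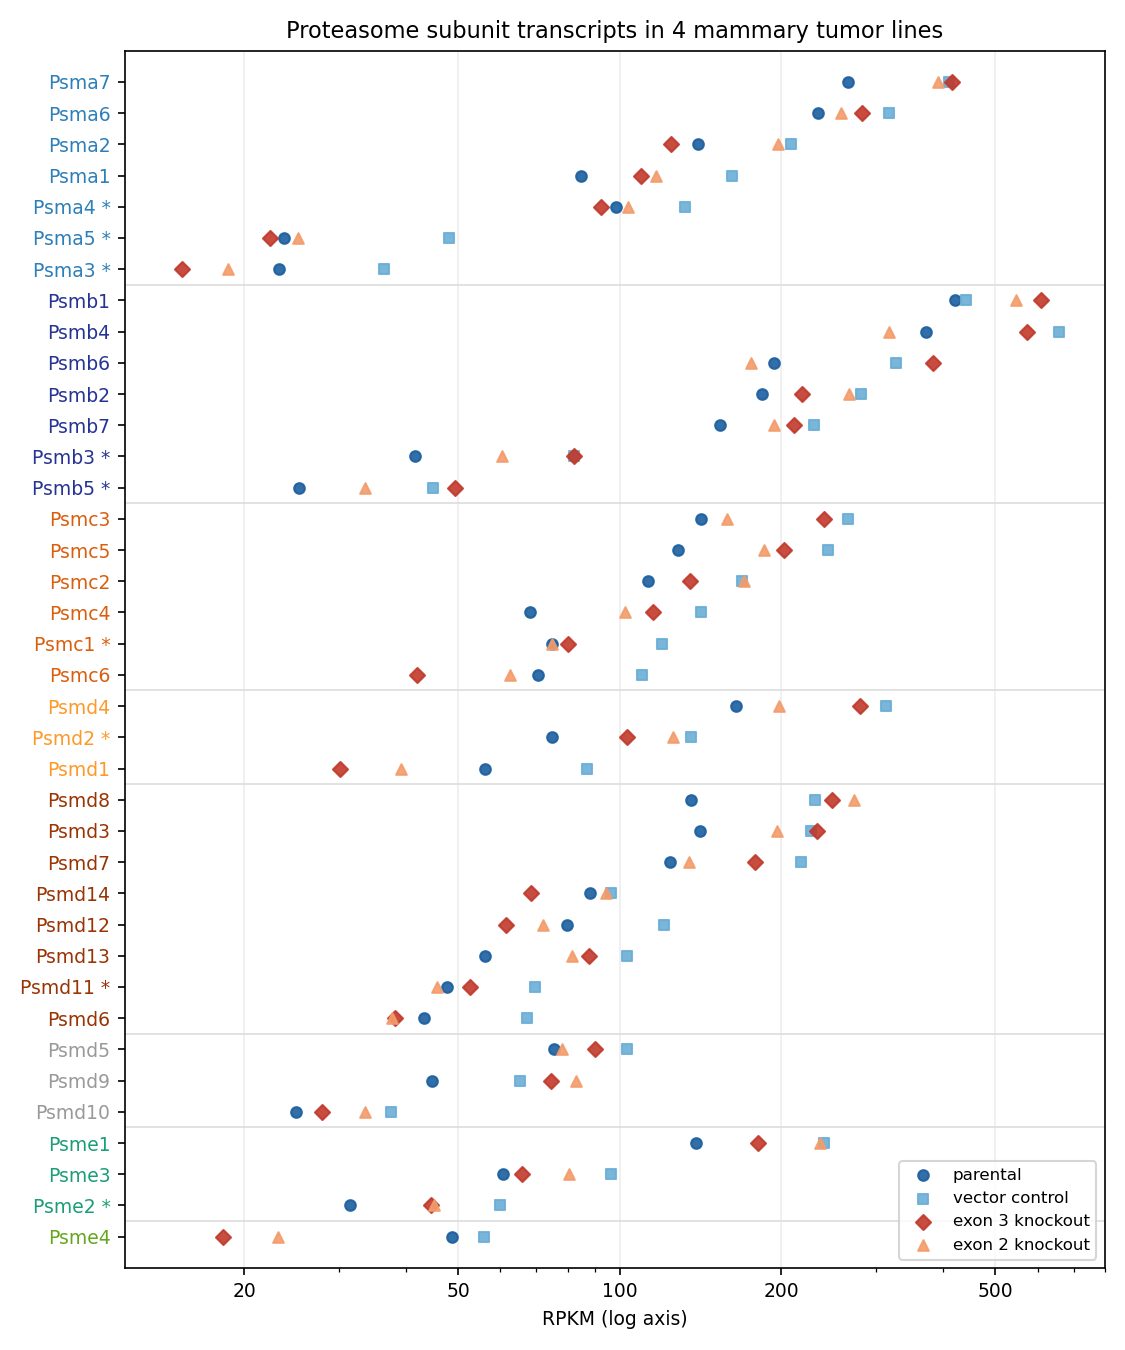
RPKM (log axis) of the 38 subunit genes with a mean of at least 1 RPKM, 1 point per line, grouped and colored by position in the complex from the alpha ring at the top to Psme4 at the bottom. An asterisk marks the 9 genes with a near-identical transcript elsewhere in the genome; the vector control lies to the right of the parental line in all 38 rows.

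Several of the low values belong to genes with a near-identical transcript elsewhere, mostly a processed pseudogene. By the measure used here (at least 95% identity over at least 50% of the coding sequence) 9 of the 38 genes had such a copy: Psma3, Psma4, Psma5, Psmb3, Psmb5, Psmc1, Psmd2, Psmd11 and Psme2. Psmb5, the chymotrypsin-like subunit, matched Gm3375 at 98.9%, Psma5 matched Gm8394 at 98.9% and Psme2 matched Psme2b at 99.3%. The median level of these 9 genes was 53.9 RPKM (23.4 to 109.9), against 164 RPKM (31.0 to 505) for the 29 genes without a copy, and 6 of the 10 lowest subunit genes had one. How reads that fit more than 1 place were counted is not given in the sources used here, so the levels of these 9 genes are uncertain, and their part in the spread of levels was not tested. Psme2b, whose symbol falls outside the rule, was the only copy of a subunit gene listed in the table, at 81.8 (parental), 167 (vector), 122 (exon 3) and 117 RPKM (exon 2). This was between 2.59 and 2.79 times the level of Psme2 in each library.

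The 2 controls differed in 1 direction across the subunit genes. All 38 tested genes were higher in the vector control than in the parental line, compared with 63.4% of all 10871 genes tested. At least 1.5-fold, 26 of the 38 were higher (9 of 14 in the core particle, 14 of 20 in the regulatory particle and 3 of 4 activators) and 0 were lower, compared with 15.5% and 11.2% of all genes tested. The median difference was 0.65 on the log2(RPKM + 1) scale, against 0.16 over all genes tested. Of 33 other genes of the pathway tested, described below, 29 were also higher in the vector control, 8 of them at least 1.5-fold. Their median difference was 0.41. In these bulk samples, a change in the share of cells of a type and a change in RNA per cell cannot be told apart.

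Psmc4, an ATPase of the base, differed most, from 68.0 (parental) to 142 RPKM (vector), or 2.08-fold. Psma5 of the alpha ring was at 23.7 and 48.2 RPKM (2.03-fold) and Psmb3 of the beta ring at 41.5 and 82.4 RPKM (1.98-fold). The smallest differences were those of Psmb1 (422 and 442 RPKM, 1.05-fold), Psmd14, the deubiquitinase of the lid (88.1 and 96.3 RPKM, 1.09-fold), and Psme4 (48.8 and 55.9 RPKM, 1.15-fold). After scaling by the median ratio, by the RPKM total or by quantiles, and after a correction for GC content and coding length, 36 of the 38 genes were above the parental line in each case, and Psmb1 and Psmd14 lay below it. The median difference of the subunit genes was then between 0.44 and 0.52, and that of all genes between 0.02 and 0.07. With 1 library per line this comparison has no replicate and no test, and the lines also differed in other genes. Col1a1, a fibroblast collagen, was at 670.3 (parental) and 6.93 RPKM (vector), and Acta2, smooth muscle actin, was at 55.2 and 420.1 RPKM. Their part in the difference was not tested.

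**Figure D2:**
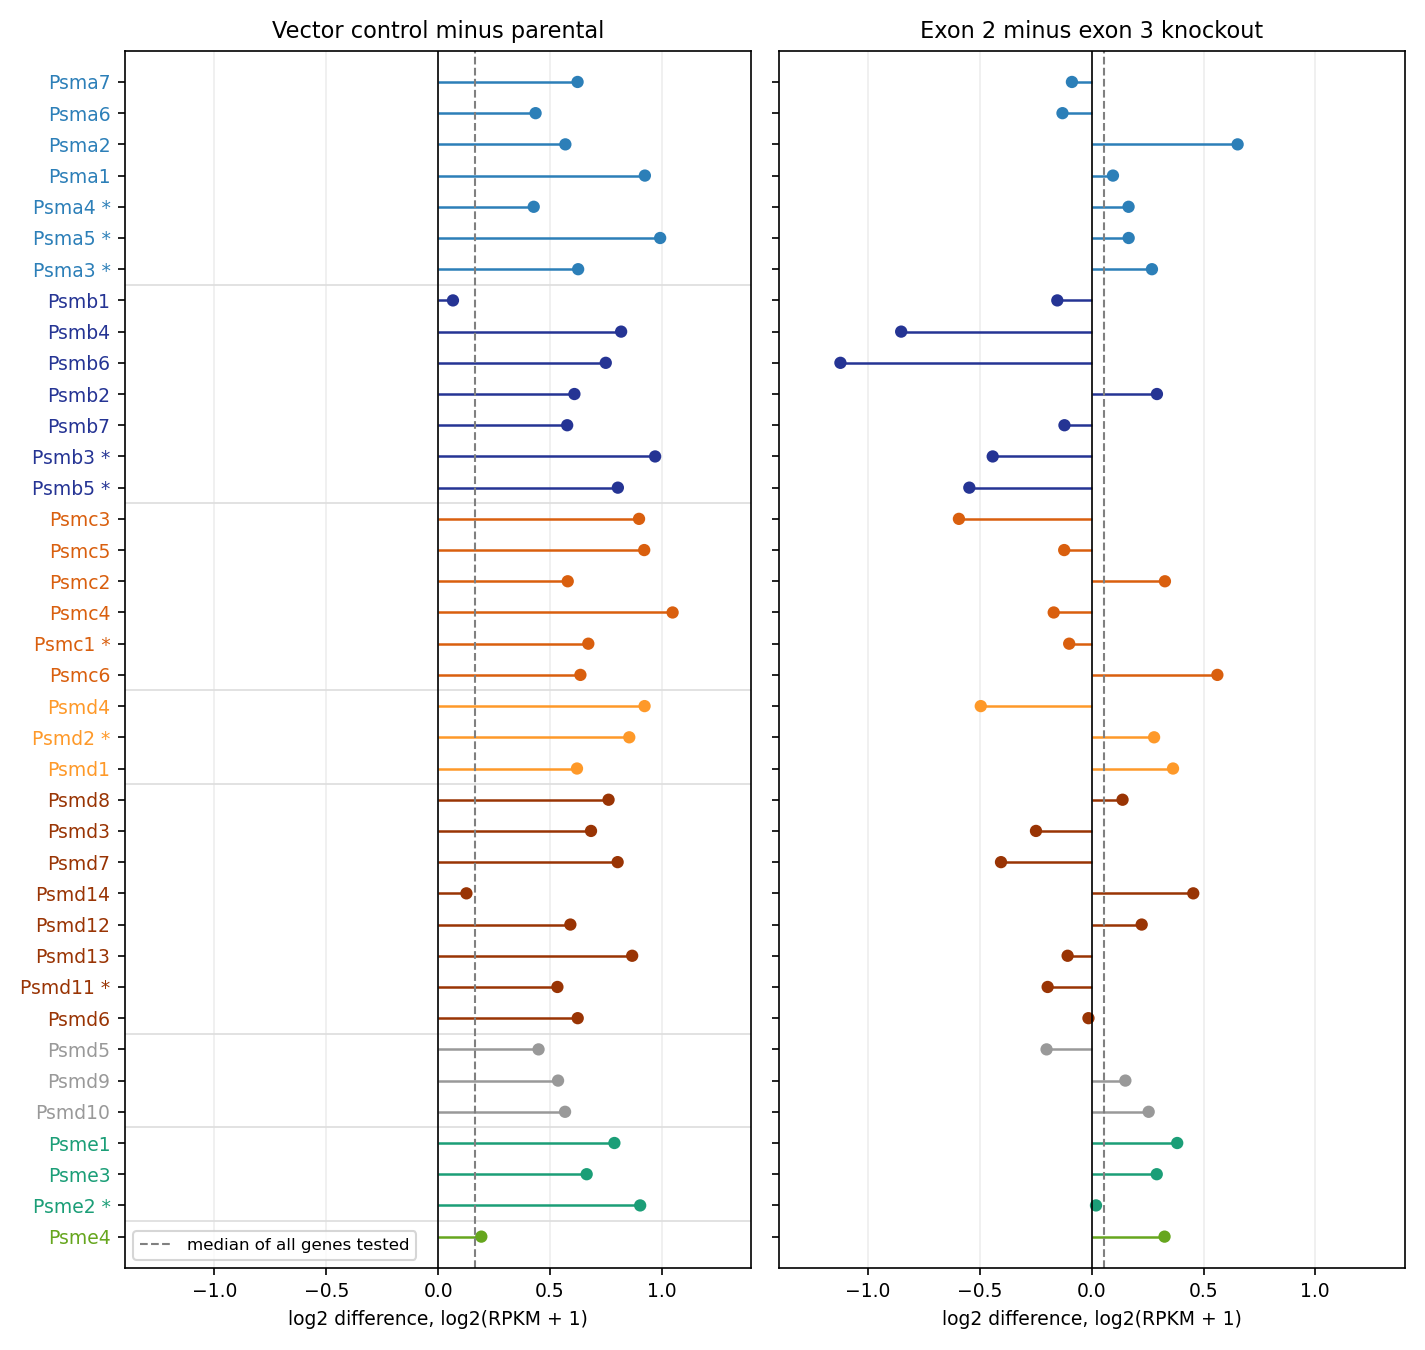
Log2 difference of each subunit gene between the 2 controls (left, vector control minus parental line) and between the 2 knockouts (right, exon 2 minus exon 3), with the median of all genes tested as a dashed line. The points on the left are all above 0, and on the right 19 lie above and 19 below 0, with Psmb6 at -1.12.

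Comparison of the knockouts with the controls asked whether loss of S100a4, which encodes a calcium-binding protein tied to metastasis, went with a change of the subunit genes. None of the 38 genes passed an adjusted p of 0.05 in limma (0 of 38), where 0.0% of all genes tested were called higher and 0.0184% lower. At an unadjusted p under 0.05, 0 subunit genes were higher and 4 were lower (Psma3, Psmc6, Psmd1 and Psme4), compared with 5.32% and 13.8% of all genes tested. With limma's robust prior, which called 285 genes, 1 subunit gene was called (Psme4), and limma-voom on reads recovered from the RPKM values called 0 genes. Both knockouts were above both controls for 3 subunit genes (Psmb1, Psmd8 and Psmd9), where 21.9% of all genes tested were, and below both controls for 6 (Psma3, Psmc6, Psmd1, Psmd6, Psmd12 and Psme4), where 31.2% were. At 1.5-fold in all 4 pairs, 0 were above (2.36% of all genes tested) and 1 was below (7.34%). With a correction for GC content and coding length, 10 subunit genes were above and 3 below, where 26.2% and 20.9% of all genes tested were, and 1 of the 3 and 3 of the 6 were among them.

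The median log2 change was 0.02 over the core particle (7 genes positive and 7 negative), 0.00 over the regulatory particle (11 and 9) and -0.01 over the activators (2 and 2), and that of all genes tested was -0.08. Under the other scalings the core particle had medians from -0.18 (quantiles) to 0.14 (GC content and length corrected), and the regulatory particle from -0.17 to 0.13. Many subunit genes lay between the controls in the knockouts. Both knockouts were between the parental line and the vector control for 17 of the 38 genes, compared with 12.9% of all genes tested. Both were above the parental line for 24 subunit genes (37.8% of all genes tested) and below the vector control for 30 (47.3%). Against the parental line the median difference of the subunit genes was 0.37 (exon 3) and 0.36 (exon 2), and against the vector control it was -0.34 and -0.40. These comparisons share libraries, and the control that is left in decides the direction. The counts also depend on the difference between the controls, whose median was 0.65 for the subunit genes and 0.16 for all genes tested. Without the vector control the medians of the core particle, regulatory particle and activators were 0.40, 0.37 and 0.38. Then 24 subunit genes were above (37.8% of all genes tested) and 6 below. Without the parental line the medians were -0.28, -0.36 and -0.41, with 3 above and 30 below (47.3% for the latter). No share over all genes is given here for the 6 and the 3.

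**Figure D3:**
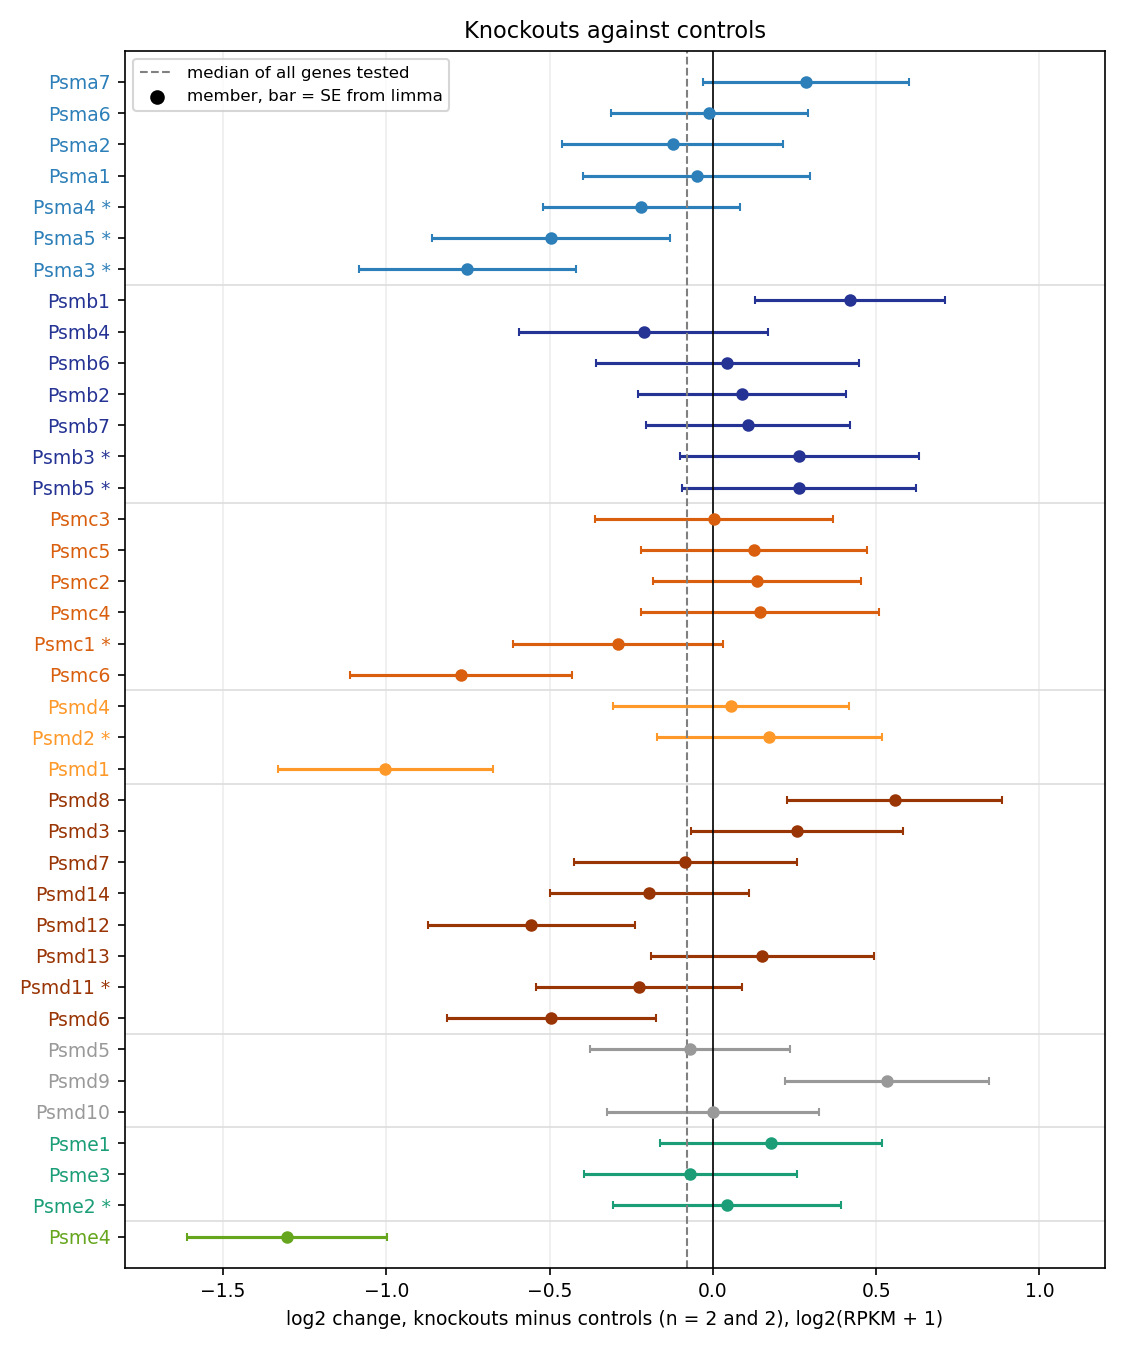
Log2 change of each subunit gene between the knockouts and the controls (2 libraries each) on the log2(RPKM + 1) scale, with bars of 1 moderated standard error from limma and the median of all genes tested as a dashed line. Most points lie within 1 standard error of 0, and Psme4 lies farthest out at -1.30.

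In the core particle, the alpha ring had 1 gene with a positive and 6 with a negative change (median -0.12), and the beta ring had 6 positive and 1 negative (median 0.11). The counts depend on the scaling, which moves genes near 0 together: with the RPKM total the medians of the alpha and beta rings were -0.25 and -0.02, and the beta ring had 3 positive and 4 negative. After the GC and length correction the medians were 0.23 and 0.08, with the alpha ring above the beta ring. Psma3, an alpha subunit, was at 23.3 (parental), 36.5 (vector), 15.3 (exon 3) and 18.7 RPKM (exon 2), with both knockouts below both controls (log2 change -0.75, SE 0.333, limma adjusted p = 0.250). Psma5 was at 23.7, 48.2, 22.4 and 25.2 RPKM in the same order, so that only the vector control stood apart (log2 change -0.50, SE 0.365, limma adjusted p = 0.470). Psma7 was at 266, 411, 416 and 391 RPKM, where the parental line was the low library (log2 change 0.29, SE 0.316, limma adjusted p = 0.636). Without the parental line the change of Psma7 was -0.03.

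Psmb1, a beta subunit without a proteolytic site, was at 422 (parental), 442 (vector), 609.6 (exon 3) and 548 RPKM (exon 2). The controls lay close together and both knockouts were above them, by 0.42 on the log2 scale (SE 0.290, limma adjusted p = 0.439). Psmb4, another beta subunit without a proteolytic site, was at 372, 658, 574 and 318 RPKM, and here the parental line and the exon 2 knockout were the low libraries (log2 change -0.21).

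The 3 proteolytic subunits differed in their pattern over the lines. Psmb6, the caspase-like subunit, lies on chromosome 11 (70525367 to 70527858, GRCm38) and was at 194 (parental), 326 (vector), 383 (exon 3) and 175 RPKM (exon 2). The exon 3 knockout was above both controls and the exon 2 knockout below both, which 1 of the 38 subunit genes and 7.88% of all genes tested showed in either order, so the mean log2 change of 0.04 (SE 0.403, limma adjusted p = 0.967) describes neither line. After the GC and length correction it was -0.20. Psmb7, the trypsin-like subunit, was at 154, 230, 211 and 194 RPKM, with both knockouts between the controls (log2 change 0.11, SE 0.311, limma adjusted p = 0.874). Psmb5, the chymotrypsin-like subunit and the main target of proteasome inhibitors, was at 25.3, 45.0, 49.5 and 33.5 RPKM (log2 change 0.26, SE 0.358, limma adjusted p = 0.706), and its groups overlapped. The ratio of Psmb6 to Psmb7 within a library, which a common factor for a library cannot alter, was 1.26 (parental), 1.42 (vector), 1.81 (exon 3) and 0.903 (exon 2). It was not corrected for GC content, which was 56.9% in the coding sequence of Psmb6 and 48.6% in that of Psmb7.

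**Figure D4:**
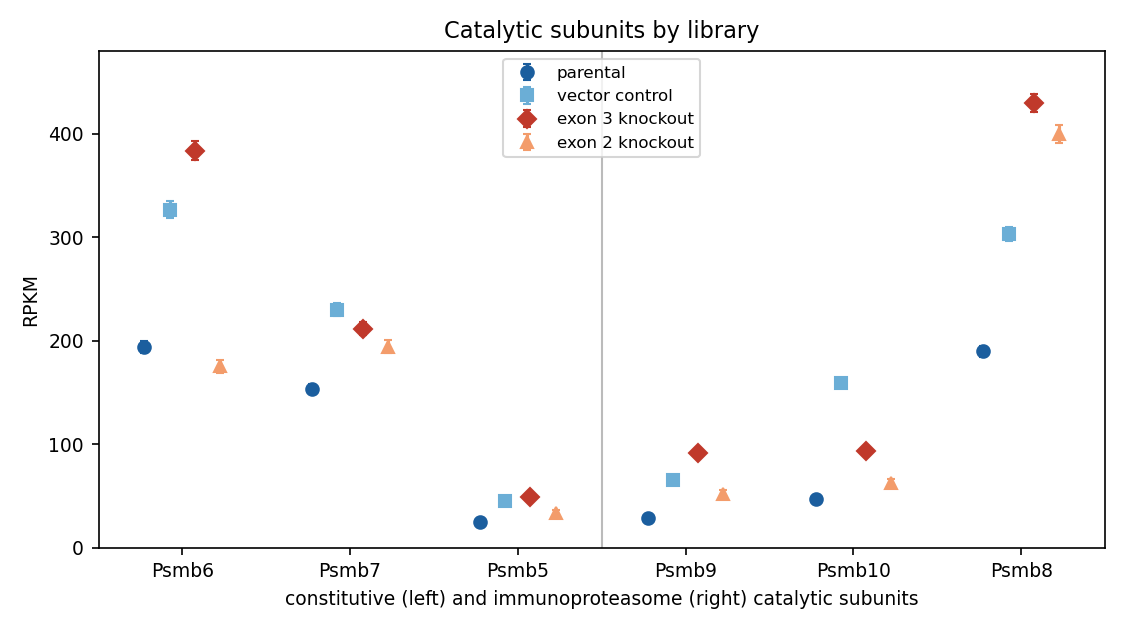
RPKM of the 3 constitutive proteolytic subunits (Psmb6, Psmb7 and Psmb5, left) and of the immunoproteasome subunits that replace them (Psmb9, Psmb10 and Psmb8, right) in the 4 lines, with bars for the 95% Wilson interval of the reads, which covers counting error only. Psmb6 is lowest in the exon 2 knockout (175 RPKM) and highest in the exon 3 knockout (383 RPKM), and Psmb8 is higher in both knockouts than in both controls.

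The immunoproteasome genes, which are not among the 40, are the exchange partners of these subunits and are known to be raised by interferon. Psmb8, which replaces Psmb5, was at 189.6 (parental), 303 (vector), 429 (exon 3) and 399.5 RPKM (exon 2) (log2 change 0.79, SE 0.320, limma adjusted p = 0.222). Psmb9, which replaces Psmb6, was at 29.1, 65.3, 91.9 and 52.1 RPKM (log2 change 0.65, SE 0.413, limma adjusted p = 0.400), and Psmb10, which replaces Psmb7, was at 47.6, 159, 93.3 and 62.9 RPKM (log2 change -0.18, SE 0.477, limma adjusted p = 0.855). Only for Psmb8 were both knockouts above both controls. The changes of these 3 genes depended on the control that was left in. Without the vector control the log2 changes of Psmb8, Psmb9 and Psmb10 were 1.12, 1.22 and 0.68. Without the parental line they were 0.45, 0.084 and -1.05. The summed RPKM of the 3 immunoproteasome subunits over that of the 3 constitutive ones was 0.715 (parental), 0.877 (vector), 0.954 (exon 3) and 1.28 (exon 2), and the exon 2 knockout was the library with the lowest Psmb6. Psmb5 is 1 of the 9 genes with a near-identical copy, which makes this ratio uncertain in level.

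In the regulatory particle, Psmd1 had the most negative change. Psmd1, the large scaffold of the base on chromosome 1 (86064387 to 86139151, GRCm38), was at 56.1 (parental), 86.8 (vector), 30.2 (exon 3) and 39.1 RPKM (exon 2). Both knockouts were below both controls, with a log2 change of -1.0 (SE 0.328, limma adjusted p = 0.165). Psmc6, an ATPase, was at 70.4, 110.1, 42.0 and 62.5 RPKM with the same order of groups (log2 change -0.77, SE 0.340, limma adjusted p = 0.250). The other ATPases had changes between -0.29 (Psmc1) and 0.14 (Psmc4). Psmd2, the partner scaffold of Psmd1 in the base, was at 74.7, 136, 103 and 126 RPKM, with both knockouts between the controls (log2 change 0.17).

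The 8 lid genes had changes on both sides of 0, with 3 positive and 5 negative, and with 6 and 2 after the GC and length correction. Psmd8 was at 136 (parental), 231 (vector), 249 (exon 3) and 274 RPKM (exon 2), so that both knockouts were above both controls (log2 change 0.56, SE 0.329, limma adjusted p = 0.368). With quantile normalization and with the GC and length correction this separation of Psmd8 was lost. Without the parental line its change was 0.18. Psmd12 was at 79.9, 121, 61.5 and 71.9 RPKM (log2 change -0.56, SE 0.317, limma adjusted p = 0.355) and Psmd6 at 43.2, 67.1, 38.1 and 37.7 RPKM (log2 change -0.49, SE 0.320, limma adjusted p = 0.411), both with the knockouts below the controls. After the GC and length correction their changes were -0.10 and -0.08 and the groups overlapped, and without the vector control they were -0.26 and -0.18. Psmd14, the deubiquitinase, was at 88.1, 96.3, 68.5 and 94.2 RPKM, and its groups overlapped. Of the assembly factors of the base, Psmd9 was at 44.6, 65.2, 74.6 and 82.9 RPKM with both knockouts above both controls (log2 change 0.53, SE 0.312, limma adjusted p = 0.364). With the GC and length correction this separation of Psmd9 was lost, and without the parental line its change was 0.27. Psmd5 and Psmd10 had changes of -0.07 and 0.00 with overlapping groups.

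Among the activators, Psme4 had a more negative change than the 3 genes of PA28. Psme4 encodes PA200, a nuclear cap that opens the core particle without ubiquitin, and lies on chromosome 11 (30771726 to 30880361, GRCm38). It was at 48.8 (parental), 55.9 (vector), 18.3 (exon 3) and 23.1 RPKM (exon 2). The means were 52.3 ± 5.05 RPKM in the controls and 20.7 ± 3.45 RPKM in the knockouts (SD, n = 2 each), and Psme4 was the only subunit gene whose knockouts were at least 1.5-fold below both controls in all 4 pairs, compared with 7.34% of all genes tested. Its log2 change was -1.30 (SE 0.306, limma adjusted p = 0.105). Over the alternatives with all 4 libraries its limma adjusted p lay between 0.0268 and 0.564, the former with the robust prior and the latter with the correction for GC content and coding length.

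Psme1 and Psme2, which form the interferon-inducible PA28 ring in the cytoplasm, had small changes. Psme1 was at 139 (parental), 241 (vector), 181 (exon 3) and 236 RPKM (exon 2) (log2 change 0.18, SE 0.340, limma adjusted p = 0.801), and Psme2 was at 31.5, 59.8, 44.5 and 45.1 RPKM (log2 change 0.04, SE 0.349, limma adjusted p = 0.962). Psme3, which forms the nuclear PA28 ring, was at 60.5, 96.5, 65.7 and 80.6 RPKM (log2 change -0.07, SE 0.326, limma adjusted p = 0.926). All 3 had both knockouts between the controls and changes smaller than their SE. Psme1 was between 4.02 and 5.24 times the level of Psme2, although both enter the same ring, and Psme2 is among the genes with a near-identical copy.

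The changes of the subunit genes ran with the GC content of their coding sequences. Across the 38 genes the change between knockouts and controls correlated with GC content at r = 0.71 (Spearman's rho 0.74), and across 10773 genes tested at r = 0.46 (rho 0.48). These are correlations across genes that share the same 4 libraries, so no p is given. The 19 subunit genes of lower GC content (41.8 to 49.7%) had a median change of -0.22 with 3 positive and 16 negative, and the 19 of higher GC content (up to 58.7%) a median of 0.15 with 17 positive and 2 negative. Psmc6 (41.8%), Psma3 (42.2%), Psme4 (42.6%) and Psmd1 (45.0%) were all in the former set, and Psmd8 (55.8%) and Psmd9 (58.7%) in the latter.

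With the correction of each library for GC content and coding length, the medians of these sets were 0.12 and 0.14. The change of Psme4 was then -0.35, that of Psmd1 -0.31, that of Psma3 -0.22 and that of Psmc6 -0.16. In limma 0 subunit genes then had an unadjusted p under 0.05, where 1422 of the 10871 genes tested did. The changes of Psmd8 and Psmd9 were 0.40 and 0.24, and that of Psmb1, of middle GC content (50.1%), was 0.53. The difference between the controls also ran with GC content among the subunit genes (r = 0.46, rho 0.48), while across all genes the relation had the opposite sign (r = -0.16, rho -0.17). Between the knockouts the relation was negative for both (r = -0.64 for the subunit genes and -0.33 for all genes). Whether GC content entered through the libraries or through the cells cannot be told apart here.

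**Figure D5:**
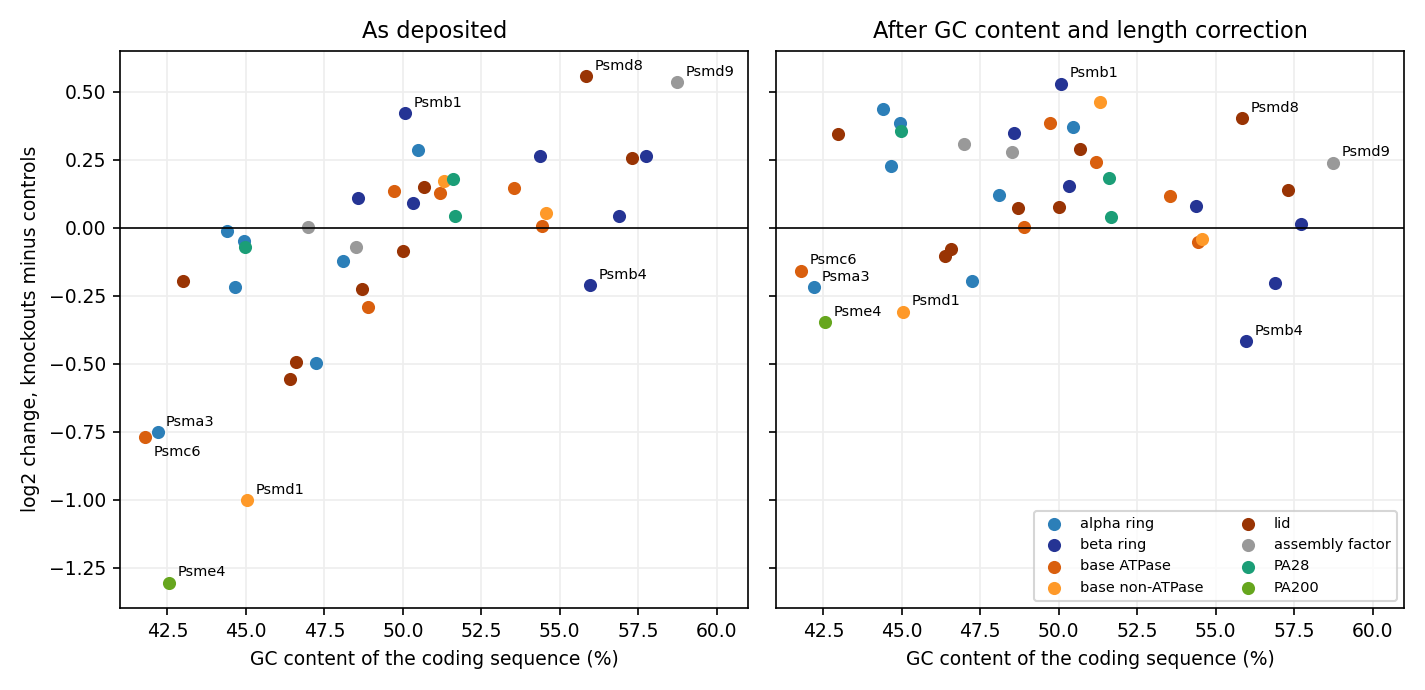
Log2 change of the 38 subunit genes between knockouts and controls against the GC content of the coding sequence (%), as deposited (left) and after each library was corrected for GC content and coding length (right), colored by position in the complex. On the left, the genes of low GC content reach down to Psme4 at -1.30, and on the right Psme4 lies at -0.35.

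Between the 2 knockouts, the exon 2 knockout was the higher for 19 of the 38 subunit genes, compared with 54.4% of all genes tested. After the correction for GC content and coding length it was the higher for 12 and the lower for 26 (median difference -0.14), where it was the higher for 50.8% of all genes tested. At least 1.5-fold, 1 gene was higher in the exon 2 knockout (Psma2, 125 against 197 RPKM), where 13.4% of all genes tested were, and 3 were lower, where 9.4% were. These 3 were Psmb6 (2.19-fold higher in the exon 3 knockout), Psmb4 (1.81-fold) and the ATPase Psmc3 (240 against 158 RPKM, 1.51-fold). Within the core particle, 6 of the 7 beta genes were lower in the exon 2 knockout (median difference -0.44) and 5 of the 7 alpha genes were higher (median 0.16). The beta genes held this count under all scalings and under the correction for GC content and coding length (median -0.30 there), whereas with the correction 6 of the 7 alpha genes were lower as well. There was 1 library per knockout, so these differences have no test.

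The balance of the particles was compared within each library. The summed RPKM of the core particle was 2262 (parental), 3379 (vector), 3192 (exon 3) and 2707 RPKM (exon 2), and that of the regulatory particle was 1753, 2925, 2390 and 2247 RPKM. The ratio of the regulatory to the core particle was therefore 0.775, 0.866, 0.749 and 0.830, and the groups overlapped. On the log2 scale the knockouts differed from the controls by -0.06, within the pooled SD of 0.11 between the libraries of a group (n = 2 each). The ratio of the alpha to the beta genes was 0.625 (parental) and 0.637 (vector), and the knockouts lay on both sides of them, at 0.4995 for exon 3 and 0.696 for exon 2. This ratio was not corrected for GC content, whose median was 44.9% in the alpha and 54.4% in the beta genes. With the GC and length correction, the median difference of exon 2 minus exon 3 was -0.13 for the alpha and -0.30 for the beta genes.

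Promoter sequences from RefSeq (GRCm38.p6, 250 bases before to 50 bases after each start) matched 33 of the 40 genes with 36 windows. They were searched on both strands for TGACNNNGC, the core of the antioxidant response element that Nfe2l1 and Nfe2l2 bind, and for CCAAT, the box bound by NF-Y. The former was in 6 of the 36 windows (16.7%) and in 12.4% of all 32851 windows, and the latter in 13 (36.1%) and in 37.4%. The 6 genes with TGACNNNGC include the proteolytic Psmb5 and Psmb6, and the matches of all 6 are shown. Of the 6, Psmd9 had both knockouts above both controls, as 21.9% of all genes tested did. Psmc6, Psmd12 and Psme4 had both knockouts below both controls, as 31.2% did. Capitals mark the match, written on the strand of the gene, so that a match on the opposite strand appears as its reverse complement.
Psmb5, chr14:54618026-54618050, minus strand: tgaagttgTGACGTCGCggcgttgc
Psmb6, chr11:70525340-70525364, plus strand: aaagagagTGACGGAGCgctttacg
Psmc6, chr14:45329589-45329613, plus strand: agccagtaGCTAAGTCAggcattgc
Psmd12, chr11:107479278-107479297, plus strand: tctGCTGTGTCAcatttgcc
Psmd9, chr5:123228151-123228175, plus strand: ctagccggTGACCCCGCccacttcc
Psme4, chr11:30771760-30771784, plus strand: ctgcggctGCAGCGTCAccagaaga
The 6 genes had a median change of -0.26 between knockouts and controls and of 0.61 between vector control and parental line. The 26 tested genes with a window but without the match had medians of -0.03 and 0.67. A match describes these letters in this window and not binding.

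Of 34 other genes of the pathway, 33 were in the table and tested. None passed an adjusted p of 0.05 in limma (0 of 33), and at an unadjusted p under 0.05 there were 3 higher (Psmb8, Psmg4 and Psmf1) and 2 lower (Ubqln2 and Uba6), compared with 5.32% and 13.8% of all genes tested. Both knockouts were above both controls for 9 and below both for 8, compared with 21.9% and 31.2%, and the median change was 0.13. All 5 assembly chaperones of the core particle in the list (Psmg1 to Psmg4 and Pomp) had positive changes with a median of 0.42, but that of Pomp, near 0, was negative after scaling by the RPKM total or by quantiles. Psmg4 was at 30.7 (parental), 44.9 (vector), 64.4 (exon 3) and 70.0 RPKM (exon 2). Pomp, the maturation factor of the core particle, was at 168, 260.2, 162 and 270.4 RPKM (log2 change 0.00, SE 0.351, limma adjusted p = 0.999), with the exon 2 knockout above and the exon 3 knockout below both controls.

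Psmf1, an inhibitor of the core particle in vitro, had the most positive change, at 24.2 (parental), 29.9 (vector), 57.2 (exon 3) and 46.9 RPKM (exon 2) (log2 change 0.92, SE 0.306, limma adjusted p = 0.169). Ubqln2, which shuttles ubiquitin-tagged proteins to the proteasome, had the most negative, at 31.0, 23.0, 11.5 and 14.4 RPKM (log2 change -1.0, SE 0.322, limma adjusted p = 0.162). In each of these the knockouts lay apart from the controls. Nfe2l1 was at 181, 202, 216 and 155 RPKM (log2 change -0.06, SE 0.304, limma adjusted p = 0.929). Its level was 1.12-fold higher in the vector control than in the parental line, a log2 difference of 0.157. The median of that difference was 0.163 over all genes tested and 0.65 over the 38 subunit genes, which were all higher. Nfe2l2 was at 61.3, 49.3, 30.8 and 40.7 RPKM, with both knockouts below both controls (log2 change -0.62, SE 0.310, limma adjusted p = 0.299).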

How the data were processed

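The authors deposited RPKM values per gene for 4 bulk RNA-seq libraries in 1 table, with no log scale or scaling between libraries. The submitters' processing notes name CASAVA 1.8, GSNAP and build GRCm38. The program that counted reads, its gene models and its treatment of reads with several matches are not given in the sources used here. Libraries were stranded total RNA per the labels. All 4 columns were matched to a sample by title, with 0 left over. Replicate numbers follow accession order and pair nothing.

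RPKM values were brought back to whole reads by comparing genes with few reads between libraries (100% of the 15405 genes above 0 came out whole within 0.001 reads). Genes above 0 in 1 library came out whole by construction, so this share is no check for them. The implied gene length matched an annotated coding length for 56.0% of 10773 genes tested. For the others a factor common to all reads of a gene is less certain. The reads served for depth, for 95% Wilson intervals and for 1 alternative test. Subunit genes that entered the test had between 276 and 13276 reads in a library, and the widest Wilson interval was ±11.8% of the value. Intervals and floors of 3 reads cover counting error only.

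Values were analysed as log2(RPKM + 1), which understates changes of low genes, for the 10871 genes with a mean of at least 1 RPKM. Knockouts were compared with controls by limma 3.58.1 with an intensity trend (R 4.3.3), with two-sided p-values adjusted by the Benjamini-Hochberg method over all genes tested. The study names no test for these libraries. P-values measure the spread between lines with 1 library each, and an exact permutation test cannot go below 0.333 with 2 against 2. The test was checked on simulated data.

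Gene identities, coordinates and coding sequences came from GENCODE M21 (GRCm38), with symbols matched for 99.4% of genes. The GC and length correction used natural splines with 4 degrees of freedom. Near-identical transcripts were found with blastn 2.17.0, and their thresholds were set after levels had been seen. Named in full were the proteolytic subunits, the most positive and most negative 2 genes of each particle, genes that passed the test and, of the pathway list, the immunoproteasome genes, Nfe2l1, Nfe2l2, Pomp and both extremes. Psmd6, Psmd12 and other genes were added after their values were seen. The members and lists were chosen with earlier results of these data known. Paaf1 was not analysed here.

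Alternatives were a pseudocount of 0.1, 3 scalings, the GC and length correction, no filter or a filter at 5 RPKM, limma with a robust prior or without the trend, limma-voom on the recovered reads, and each library left out in turn. Tables were handled in Python 3.11.15 (pandas 2.3.3, numpy 2.4.6), with statsmodels 0.14.6 and scipy 1.17.1 for intervals and correlations.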

Additional observations from a re-analysis of the deposited data

Results flagged for a closer look

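In 1 of the 38 subunit genes, and in 3 of the 33 pathway genes tested, 1 knockout lay above both controls and the other below both. Of all genes tested, 7.88% did so. Psmb6, the caspase-like subunit, was at 194 (parental), 326 (vector), 383 (exon 3) and 175 RPKM (exon 2). Nfe2l1, the transcription factor of subunit genes, was at 181, 202, 216 and 155 RPKM in the same order and had its knockouts on the same sides as Psmb6. Ddi2, of the pathway list, was at 14.70, 14.73, 13.88 and 20.02 RPKM, with its knockouts on the opposite sides to those of Psmb6. Pomp, the maturation factor of the core particle, was at 168, 260.2, 162 and 270.4 RPKM, with the exon 2 knockout above and the exon 3 knockout below both controls. For Pomp the 95% Wilson intervals of each knockout and its nearest control overlapped (154 to 170.1 and 161 to 175 RPKM for the exon 3 knockout and the parental line). This difference was not tested, since each knockout had 1 library. The correction for GC content and coding length left the exon 2 knockout below the exon 3 knockout for 6 of the 7 beta genes, 6 of the 7 alpha genes and 26 of the 38 subunit genes.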

How the results depend on the processing

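No paired analysis was possible because the replicate numbers only follow accession order and the lines share no culture, day or other number in the labels. The 3 subunit genes above and 6 below both controls became 10 and 3 with the correction for GC content and coding length (26.2% and 20.9% of all genes tested). At 1.5-fold in all 4 pairs they became 0 and 1 (2.36% and 7.34% of all genes tested). The 6 below became 11 with scaling by the RPKM total (38.2% of all genes tested) and 11 with quantile normalization (24%). Leaving out 1 library gave between 3 and 24 above and between 6 and 30 below. The 24 were found without the vector control, where 37.8% of all genes tested were above. The 30 were found without the parental line, where 47.3% of all genes tested were below. The median change then lay between -0.28 and 0.40 for the core particle, between -0.36 and 0.37 for the regulatory particle and between -0.41 and 0.38 for the activators. The lowest value of each was without the parental line and the highest without the vector control. The log2 ratio of the regulatory to the core particle lay between -0.14 and 0.03 on leaving out 1 library. The number of subunit genes called by limma was 0, was 1 with a robust prior (Psme4), and lay between 0 and 3 on leaving out 1 library, when the lone library of a group is assumed to vary like the others. Without the parental line these 3 were Psmc6, Psmd1 and Psme4.

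Over all genes, limma called 2 as fitted, 32 with a filter at 5 RPKM, 285 with a robust prior, 0 with limma-voom, 788 without the parental line and 451 without the vector control. The scalings moved the median change of all genes by 0.08 (median ratio), -0.12 (RPKM total) and 0.12 (quantiles), and the GC and length correction by 0.12. Signs turned for several changes that were small as fitted. Psmb6 came to -0.087 with the RPKM total, -0.19 with quantiles and -0.20 with the GC and length correction, and Psmb7 to -0.024 with the RPKM total and -0.14 with quantiles. Psme3 came to 0.022 with the median ratio and 0.36 with the GC and length correction, Psme1 to -0.038 with quantiles and Psme2 to -0.086 with the RPKM total. Nfe2l1 came to 0.030 with the median ratio, and Pomp to -0.13 with the RPKM total and -0.22 with quantiles. The cause was not tested. On leaving out 1 library the change lay between -0.026 and 0.60 for Psma7, -0.99 and 0.00052 for Psma5, -0.14 and 0.66 for Psmb5, -0.52 and 0.61 for Psmb6, -0.18 and 0.40 for Psmb7, -0.22 and 0.57 for Psme1, -0.41 and 0.49 for Psme2 and -0.40 and 0.26 for Psme3. It lay between 0.45 and 1.12 for Psmb8, 0.084 and 1.22 for Psmb9, -1.05 and 0.68 for Psmb10, -0.30 and 0.18 for Nfe2l1 and -0.37 and 0.37 for Pomp. Of the values for single named genes under alternatives with all 4 libraries, 193 kept direction and side of the threshold, 3 passed it newly (S100a4 with quantiles and with the robust prior, and Psme4 with the robust prior) and 12 turned sign. On leaving out 1 library these numbers were 78, 8 and 18. Depth sets the counting intervals, and with 1 library per line the spread between libraries of a line cannot be measured.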
